A study of Mus musculus with 109 samples.

Results

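Dividing cells of the postnatal cerebellum that already carry Dcx RNA were compared with dividing cells that carry little of it. The study captured single cells from cerebella of P7 C57BL/6 mice, enriched for granule cell progenitors (GCPs) on a Percoll density gradient, on C1 Fluidigm chips, and sequenced 1 library from each of 109 cells. All cells shared this strain, age and preparation, and the labels name no mutation or treatment. Expression was measured as CPM, the number of reads of a gene per 1000000 reads placed on genes in that cell. Of the 106 cells left after 1 cell with under 1000000 counts and 2 cells with over 10000 detected genes were set aside, 30 had at least 100 CPM of Mki67 and are called cycling. The cycling cells were then chosen by Dcx, and 24 of the 109 cells are described here. Among the 30, 14 had at least 200 CPM of Dcx (cycling cells with Dcx), 10 had under 50 CPM (cycling cells without Dcx), and 6 lay between and were left out. For comparison, 60 non-cycling cells with Dcx, under 10 CPM of Mki67 and at least 200 CPM of Dcx, were set beside them. They are called non-cycling by Mki67 alone, and some carried other cell cycle or astroglial genes, with up to 21002 CPM over the S phase list and an astroglial sum of up to 61531 CPM in 1 cell.

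In the external germinal layer of the young cerebellum, GCPs divide under Sonic hedgehog supplied by Purkinje cells, then leave the cycle, extend axons along the layer and migrate inwards as granule cells (GCs). Mki67 encodes a nuclear protein of dividing cells, and Dcx encodes doublecortin, a microtubule-binding protein of young migrating neurons. The question was whether cells that still divide and carry Dcx already carry other neuronal genes. Mki67 and Dcx chose the cells, so their levels are not results. The highest Dcx level among cycling cells without Dcx was 47.7 CPM, the cells between held 69.8 to 191 CPM, and the lowest level among cycling cells with Dcx was 288 CPM. The median Dcx level of cycling cells with Dcx was 879 CPM, below the 3054 CPM of non-cycling cells with Dcx. The lowest Mki67 level among cycling cells with Dcx was 132 CPM.

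**Figure D1:**
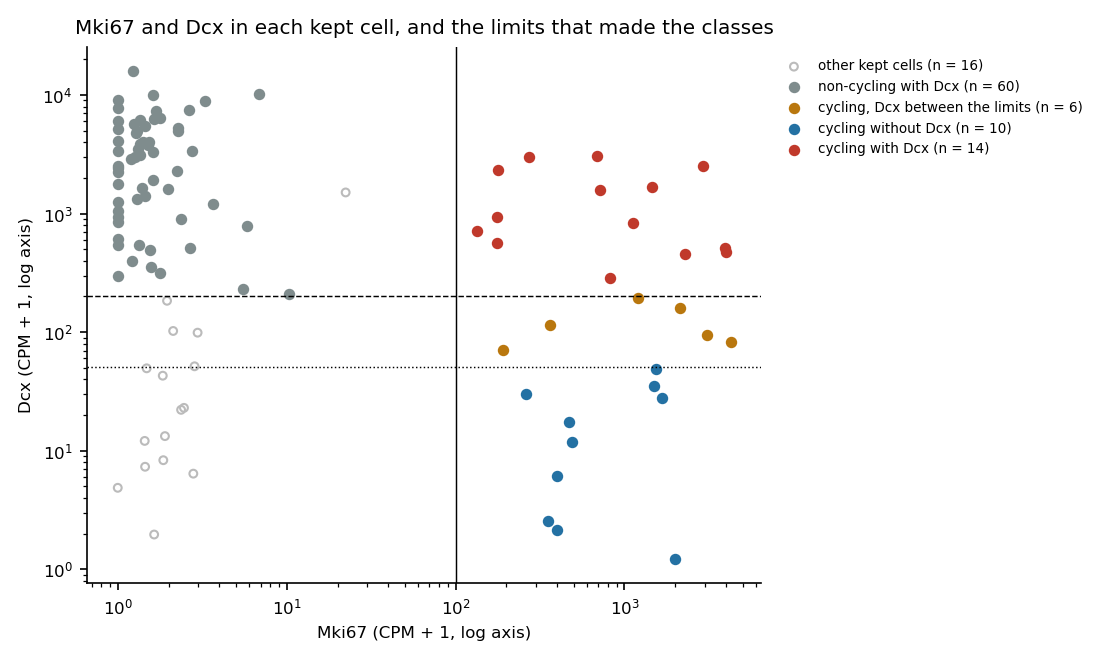
Mki67 (horizontal) against Dcx (vertical) in each of the 106 kept cells, both as CPM + 1 on log axes. The solid line marks the Mki67 limit of 100 CPM, and the dashed and dotted lines mark the Dcx limits of 200 and 50 CPM that set apart the 14 red and 10 blue cells.

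The labels place the cells in 6 library groups of 18 or 19 cells. The sources used here do not say whether these came from separate animals, so p-values measure only the spread between library groups, which may be technical. Library groups 1, 2, 3, 5 and 6 held 1, 3, 5, 3 and 2 cycling cells with Dcx, and library group 4 held none. Cycling cells without Dcx numbered 2, 1, 1, 2, 3 and 1 in library groups 1 to 6. Only 5 library groups therefore held both classes, and an exact two-sided sign-flip test over 5 differences cannot give a p below 0.0625. Total counts ran from 1998300 to 6787358 in cycling cells with Dcx and from 1562597 to 5757487 in those without. Within library groups the log2 total count differed by 0.15 ± 0.44 (SD, n = 5, exact sign-flip p = 0.5). Cycling cells with Dcx had 545 ± 406 more detected genes (SD, n = 5 library groups, exact sign-flip p = 0.125), and 4 of the 5 library groups lay that way. Whether this difference in detected genes took part in the gene comparisons was not tested.

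A few of the 24 cells carried several genes of another lineage, and single genes of such lists were spread wider. One cycling cell with Dcx, in library group 5, had 13 of 15 listed astroglial genes at 50 CPM or more, with 7555 CPM of Slc1a3, the glial glutamate transporter, and 6823 CPM of Aqp4, the astroglial water channel. Its summed astroglial level was 28439 CPM, against a median of 296 CPM over the 14 cells. The only cycling cell without Dcx in library group 3 had genes of oligodendrocyte precursors, with 8132 CPM of Pdgfra, 2045 CPM of Olig1, 2001 CPM of Sox10 and 1802 CPM of Cspg4. One further cycling cell with Dcx, in library group 3, reached 50 CPM for 5 astroglial genes, none above 162 CPM, and held 1710 CPM of Mbp, the myelin basic protein. Comparisons were repeated without these 3 cells and 2 non-cycling cells that met the same limit of 5 astroglial genes at 50 CPM. Pdgfra was wider spread, at 10 CPM or more in 6 of 14 cells with Dcx, up to 2914 CPM, and in 4 of 10 without. Other oligodendrocyte genes also lay in further cells of both classes. A cycling cell with Dcx in library group 2 held 2 of the listed genes at 10 CPM or more, and its list summed to 4251 CPM. Another cycling cell with Dcx, in library group 5, held 6 of the 7 listed microglial genes at 10 CPM or more, summing to 894 CPM. In cycling cells without Dcx the microglial genes summed to at most 9.94 CPM, and Cx3cr1, C1qa, Csf1r and P2ry12 were at 0. The endothelial genes Cldn5, Flt1 and Kdr were at 0 in both cycling classes. The other listed gene of endothelium and blood reached 114 CPM in 1 cycling cell with Dcx, in library group 3. It reached at most 0.193 CPM in cells without Dcx. Among GABAergic and Purkinje genes, Ptf1a was at 0 in both classes. Of the 11 such genes listed, 9 had a count in cells with Dcx and 8 in cells without. Their sums per cell had medians of 1131 and 594 CPM. Lhx1, on this list, was widely carried and is described under the other observations. Eomes, a factor of unipolar brush cells, reached 3919 CPM in a single cycling cell with Dcx in library group 3 and at most 3.77 CPM in cells without Dcx.

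The granule lineage markers Pax6, Meis1, Zic1 and Barhl1 were carried by cells of both classes. Atoh1, another such marker, reached 10 CPM in 4 of 14 cells with Dcx and 0 of 10 without, as described below. Pax6 reached 10 CPM in 13 of 14 cycling cells with Dcx and 8 of 10 without, Meis1 in 13 and 9 cells, and Zic1 in 12 and 8 cells. These genes encode transcription factors of GCPs and GCs. Barhl1, a homeobox factor of the granule lineage, reached 10 CPM in 5 of 14 and 3 of 10 cells. Pax6 ran from 5.09 to 3498 CPM with a median of 166 CPM in cells with Dcx, and from 0.221 to 2254 CPM with a median of 116 CPM in cells without. The ranges of the classes overlapped across almost their whole width.

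Cell cycle genes also ran through both classes. The S phase list, 53 genes of DNA replication, summed to a median of 7627 CPM per cell with Dcx (669 to 27019) and 7711 CPM per cell without Dcx (1593 to 19451). The G2/M list, 59 genes of chromosome condensation and the mitotic spindle, summed to a median of 17037 CPM (3971 to 53610) and 19191 CPM (2957 to 44262). In non-cycling cells with Dcx the medians were 1367 and 2944 CPM. The S phase sum lay above the G2/M sum in 5 of 14 cycling cells with Dcx and 2 of 10 without. Both classes thus held cells of either kind. Top2a, which untangles DNA in G2 and mitosis, ran from 0.399 to 4128 CPM with a median of 505 CPM in cells with Dcx, and from 0.221 to 4780 CPM with a median of 989 CPM in cells without. It reached 10 CPM in 12 of 14 and 5 of 10 cells. Ccna2, cyclin A, reached 10 CPM in 9 of 14 and 3 of 10 cells, and Cks2, a small partner of mitotic kinases, in 9 of 14 and 2 of 10 cells. Neither passed the test described next.

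**Figure D2:**
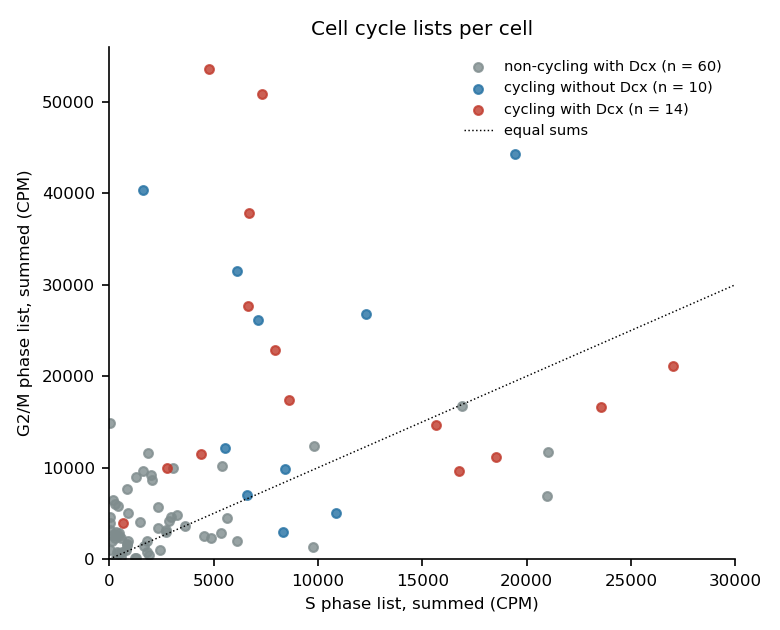
Summed expression per cell of the S phase list (horizontal) and the G2/M list (vertical), in CPM, with the dotted line at equal sums. Cycling cells with Dcx (red) and without (blue) spread over the same range, up to 53610 and 44262 CPM of the G2/M list, while most non-cycling cells (grey) lie near the origin.

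For tests across all genes, the raw counts of each library group were added up class by class, which gave 5 sums with Dcx, 6 without and 6 of non-cycling cells. No gene of 7926 tested was called between cycling cells with and without Dcx at an adjusted p under 0.01 (0%, edgeR's quasi-likelihood test with Benjamini-Hochberg adjustment), nor at 0.05. The lowest adjusted p was 0.114. At an unadjusted p under 0.05, 1031 genes (13%) lay higher and 438 (5.53%) lay lower in cells with Dcx. These p-values share their spread with the sums of non-cycling cells, which held 8 to 12 cells each, while cycling sums held 1 to 5. With the cycling sums alone, 217 of 4079 genes had an unadjusted p under 0.05 and the lowest adjusted p was 0.79. DESeq2 on the same sums called 611 higher (5.55%) and 244 lower (2.22%) of 11010 genes at an adjusted p under 0.01. With single cells as the units and library group as a term, edgeR gave 4 genes an adjusted p under 0.01, all lower in cells with Dcx. Cells of 1 library group are not independent replicates, so these p-values are too small as a test of the classes, and the sums gave 0 such genes. The 4 genes were Cenpt, Crkl, Arf3 and Cdadc1, named here after their values were seen, and each reached 10 CPM in 3 or 4 cells without Dcx and in 0 of 14 with it. Without these 3 cycling and 2 non-cycling cells, 0 of 7455 genes were called by edgeR and 1366 had an unadjusted p under 0.05. Within-class variation was wide, with a biological coefficient of variation of 220%.

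Some RNAs of the neuronal cytoskeleton were already present in dividing cells, whether or not they carried Dcx. Map1b, a microtubule-associated protein of growing axons (chromosome 13, 99421446 to 99516540, GRCm38), reached 10 CPM in 14 of 14 cycling cells with Dcx, 10 of 10 without and 60 of 60 non-cycling cells. Its level ran from 16.7 to 11251 CPM with a median of 3352 CPM in cells with Dcx, and from 15.5 to 10166 CPM with a median of 3795 CPM in cells without. The classes overlapped fully, and the median of the non-cycling cells was 6906 CPM. Tubb3, the neuronal beta-tubulin (chromosome 8, 123411424 to 123422015), reached 10 CPM in 9 of 14 and 7 of 10 cycling cells and in 54 of 60 non-cycling cells. Its range was 0.86 to 1616 CPM with a median of 228 CPM in cells with Dcx, and 1.41 to 5195 CPM with a median of 241 CPM in cells without. Tubb3 was thus either abundant or nearly missing in single cells of both classes. In the sums Tubb3 averaged 632 ± 511 CPM with Dcx (SD, n = 5) and 1680 ± 2080 CPM without (SD, n = 6), a log2 difference of -1.31 (SE 1.17, edgeR adjusted p = 0.619).

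Stmn2, a stathmin that destabilises microtubules in growth cones (chromosome 3, 8509360 to 8561606), was the 1 panel gene whose mean log2(CPM + 1) per cell lay higher with Dcx in every library group holding both classes, and by sums it shared this with Ccnb1. Its sums stood at 265 CPM with Dcx and 183 CPM without in library group 1, 610 and 4.55 CPM in group 2, 1005 and 596 CPM in group 3, 564 and 374 CPM in group 5, and 375 and 47.8 CPM in group 6. Library group 4, with cells without Dcx only, held 734 CPM, so the classes overlapped when set side by side. Over single cells the median was 634 CPM with Dcx (6.13 to 1904) and 235 CPM without (2.93 to 983). The mean difference within library groups was 2.02 ± 2.61 in log2(CPM + 1) (SD, n = 5, exact sign-flip p = 0.0625, adjusted p = 0.808 over 42 panel genes). On the sums Stmn2 differed by 0.80 on the log2 scale (SE 1.04, edgeR adjusted p = 0.773).

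Map2, a dendritic microtubule-associated protein (chromosome 1, 66175273 to 66442583), had a negative difference. Its sums were 1.1, 24.8, 432, 55.1 and 41.7 CPM with Dcx in library groups 1, 2, 3, 5 and 6, and 1064, 987, 406, 909, 27.7 and 696 CPM without Dcx in library groups 1 to 6. The sums with Dcx lay lower in groups 1, 2 and 6 and higher in groups 3 and 5. Per cell, Map2 reached 10 CPM in 9 of 14 cells with Dcx (64.3%, 95% Wilson interval 38.8 to 83.7%), 9 of 10 without (90%, 59.6 to 98.2%) and 57 of 60 non-cycling cells (95%, 86.3 to 98.3%). These intervals treat cells as independent, which cells of 1 library group may not be. Map2 differed by -2.78 on the log2 scale (SE 1.32, edgeR adjusted p = 0.252), and DESeq2 called it lower with Dcx at -3.59 (adjusted p = 0.00547). The non-coding Gm10558 overlaps exons of Map2 on the other strand, and the strand setting of the counting is not given in the sources used here.

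Gap43, a growth cone protein, was low in both cycling classes, with medians of 2.6 CPM with Dcx and 3.06 CPM without, against 324 CPM in non-cycling cells. Mapt, which encodes tau of axons, reached 10 CPM in 1 of 14 cycling cells with Dcx, 1 of 10 without and 29 of 60 non-cycling cells. Tuba1a and Dpysl2, an alpha-tubulin and a collapsin response mediator of axon growth, lay lower with Dcx in 5 of 5 library groups without passing the test. Their medians were 1235 and 1350 CPM for Tuba1a, and 3961 and 4621 CPM for Dpysl2. Of the 27 tested genes of the cytoskeleton and growth cone list, 0 were called by edgeR. Of them 13 lay higher with Dcx, beside 52.1% of all genes tested. The median log2 difference was -0.10, beside 0.13 for all genes tested. At an unadjusted p under 0.05, 1 lay higher and 1 lower, beside 13% and 5.53% of all genes. DESeq2 called 1 higher and 1 lower of 26, beside 5.55% and 2.22% of all genes. With DESeq2 size factors in the edgeR fit the median of the list was 0.20, beside -0.07 for all genes, so the list has no settled direction.

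**Figure D3:**
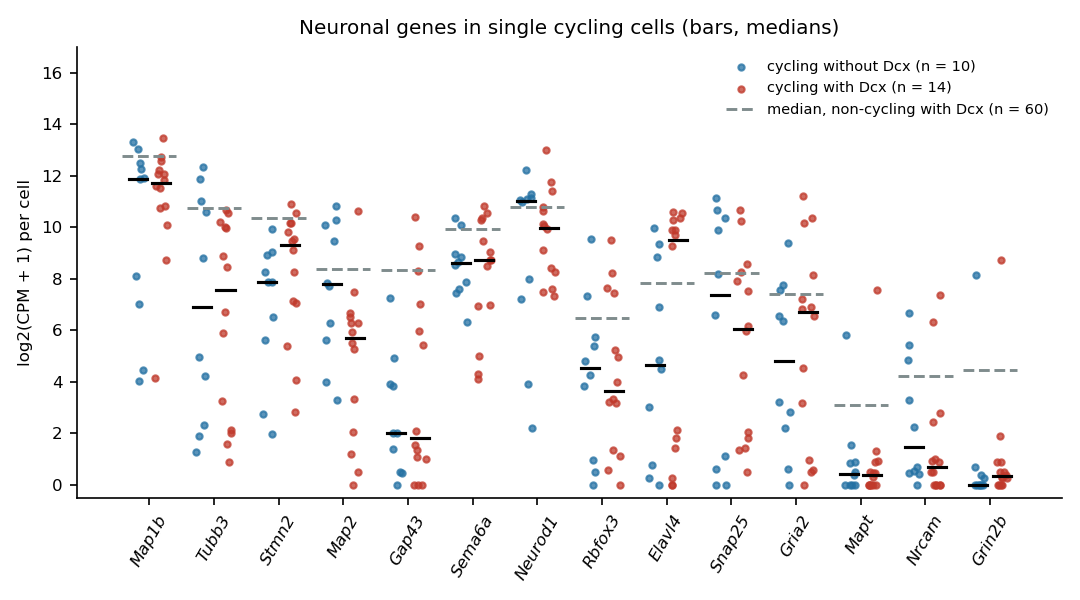
log2(CPM + 1) per cell of 14 neuronal genes in cycling cells without Dcx (blue) and with Dcx (red), with class medians as black bars and the median of 60 non-cycling cells with Dcx as a dashed line. Map1b, Sema6a and Neurod1 are present in nearly every cycling cell, while Mapt, Nrcam and Grin2b are low in both cycling classes.

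Genes of adhesion, guidance and migration were carried by both classes in part. Sema6a, a transmembrane semaphorin of migrating GCs, reached 10 CPM in 14 of 14 cells with Dcx, 10 of 10 without and 57 of 60 non-cycling cells. Its medians were 421, 391 and 985 CPM, and its range was 16.3 to 1797 CPM with Dcx and 79.3 to 1327 CPM without. Sema6a differed by -0.18 on the log2 scale between the cycling classes (SE 0.95, edgeR adjusted p = 0.954). Cntn2, the axonal adhesion molecule TAG-1 of the inner germinal layer, reached 10 CPM in 9 of 14 cells with Dcx and 3 of 10 without, with medians of 72.9 and 2.65 CPM. It lay higher in 4 of 5 library groups (exact sign-flip p = 0.125, adjusted p = 0.808 over the panel). Astn1, which encodes astrotactin of glia-guided migration, reached 10 CPM in 4 of 14 cells with Dcx and 0 of 10 without (95% Wilson interval 0 to 27.8%), and in 13 of 60 non-cycling cells. Nrcam, an adhesion molecule of the L1 family, reached 10 CPM in 2 of 14, 3 of 10 and 32 of 60 cells.

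The adhesion genes with the largest positive differences, Pard6a, Efnb2 and Chl1, reached 10 CPM in only 2, 1 and 1 of 14 cells with Dcx and in 0 of 10 without. Robo2, a Slit receptor, reached 10 CPM in 6 of 14 cells with Dcx, up to 1237 CPM, and in 1 of 10 without, at 60.7 CPM. Its log2 difference was 4.45 (SE 2.12, edgeR adjusted p = 0.253), and its sums lay higher in 5 of 5 library groups. Robo1, another Slit receptor, held 3 counts over all cells with Dcx and 781 over those without, nearly all in 1 cell at 492 CPM. The pooled CPM without Dcx was 338 times that with Dcx (counting interval 115 to 1641), a ratio of those cells only. Of 30 tested genes of the list, 0 were called by edgeR and 18 lay higher, beside 52.1% of all genes tested. Their median log2 difference was 0.36. DESeq2 called 2 higher and 0 lower of 28, beside 5.55% and 2.22% of all genes. At an unadjusted p under 0.05, 4 lay higher and 1 lower, beside 13% and 5.53% of all genes.

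No transcription factor of the granule lineage passed edgeR's test. Neurod1, a basic helix-loop-helix factor of GC differentiation, reached 10 CPM in 14 of 14 cells with Dcx, 9 of 10 without and 59 of 60 non-cycling cells. It ran from 162 to 8286 CPM with a median of 1019 CPM in cells with Dcx, and from 3.60 to 4851 CPM with a median of 2088 CPM in cells without. Neurod1 differed by -0.42 on the log2 scale (SE 0.85, edgeR adjusted p = 0.859). Exons of Cerkl overlap Neurod1 on the same strand, so reads of the 2 genes may not be separable. Nfix, a nuclear factor I gene of GC maturation, had medians of 38.1, 208 and 201 CPM in the 3 classes. Of 34 tested factors, 0 were called by edgeR and 14 lay higher, beside 52.1% of all genes tested. Their median was -0.28. DESeq2 called 0 higher and 2 lower of 27, beside 5.55% and 2.22% of all genes. At an unadjusted p under 0.05, 0 lay higher and 1 lower, beside 13% and 5.53% of all genes.

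Neuronal RNA-binding proteins, which steer splicing and RNA stability, were likewise carried by both classes. Elavl4, the neuronal HuD protein (chromosome 4, 110203722 to 110351909), reached 10 CPM in 8 of 14 and 6 of 10 cells, with medians of 729 and 24.7 CPM. Its range was 0 to 1542 CPM with Dcx and 0 to 995 CPM without, so each class held cells with and without the RNA. Elavl4 differed by 1.67 on the log2 scale (SE 1.57, edgeR adjusted p = 0.646). Rbfox3, the NeuN antigen of postmitotic neurons, reached 10 CPM in 7 of 14, 7 of 10 and 38 of 60 cells, with medians of 11.9, 22.5 and 87.5 CPM. Rbfox3 differed by 0.09 on the log2 scale (SE 1.58, edgeR adjusted p = 0.988), a value that turned negative in 8 of 17 alternatives. Celf2 was present in all 24 cycling cells, with medians of 1870 and 1702 CPM. Of 16 tested genes, 0 were called by edgeR and 8 lay higher, beside 52.1% of all genes tested. Their median was -0.14. DESeq2 called 2 higher and 0 lower of 17, beside 5.55% and 2.22% of all genes. At an unadjusted p under 0.05, 1 lay higher and 0 lower, beside 13% and 5.53% of all genes.

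Genes of the synapse and of excitability gave the most differences at an unadjusted p under 0.05, 9 higher and 1 lower of 32 tested, beside 13% and 5.53% of all genes, and 0 were called by edgeR. Their median log2 difference was -0.22, and 16 of 32 lay higher, beside 52.1% of all genes tested. Without the 3 cycling and 2 non-cycling cells with astroglial genes that median was 0.48. The sums of the list per cell had medians of 4245 CPM with Dcx (2028 to 7016), 3162 CPM without (727 to 9058) and 7257 CPM in non-cycling cells. The genes at low p were carried by few cells. Syt1, the calcium sensor of vesicle release, reached 10 CPM in 3 of 14 cells with Dcx, at 1890, 1767 and 332 CPM, and in 1 of 10 without, at 10.05 CPM. Pclo, a scaffold of the presynaptic active zone, reached 10 CPM in 4 cells with Dcx, at 668, 667, 17.6 and 15.8 CPM, and in 0 of 10 without. Gria4, an AMPA receptor subunit, reached 10 CPM in 5 cells with Dcx, at 848, 255, 80.4, 79 and 42.6 CPM, and reached 9.73 CPM at most without. One cell of library group 6 was among the highest for all 3 genes.

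In the sums Gria4 lay higher with Dcx in 5 of 5 library groups, Pclo in 4 and Syt1 in 3. Their log2 differences were 6.36 for Gria4 (SE 2.20), 7.36 for Pclo (SE 2.34) and 7.48 for Syt1 (SE 2.49), each with an edgeR adjusted p of 0.115. DESeq2 called 5 genes of the list higher and 1 lower of 31, beside 5.55% and 2.22% of all genes, among them Gria4 (adjusted p = 4.09e-05), Pclo (adjusted p = 0.000169) and Syt1 (adjusted p = 0.00239). Vamp2, a vesicle SNARE protein, was the member at low p that lay lower, with at most 1.96 CPM in cells with Dcx and 435 and 92.9 CPM in 2 cells without. More widely used synaptic genes overlapped. Snap25, another SNARE protein, reached 10 CPM in 9 of 14, 6 of 10 and 48 of 60 cells, and Gria2 in 9, 5 and 45 cells. Grin2b, an NMDA receptor subunit, reached 10 CPM in 1 of 14, 1 of 10 and 33 of 60 cells.

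**Figure D4:**
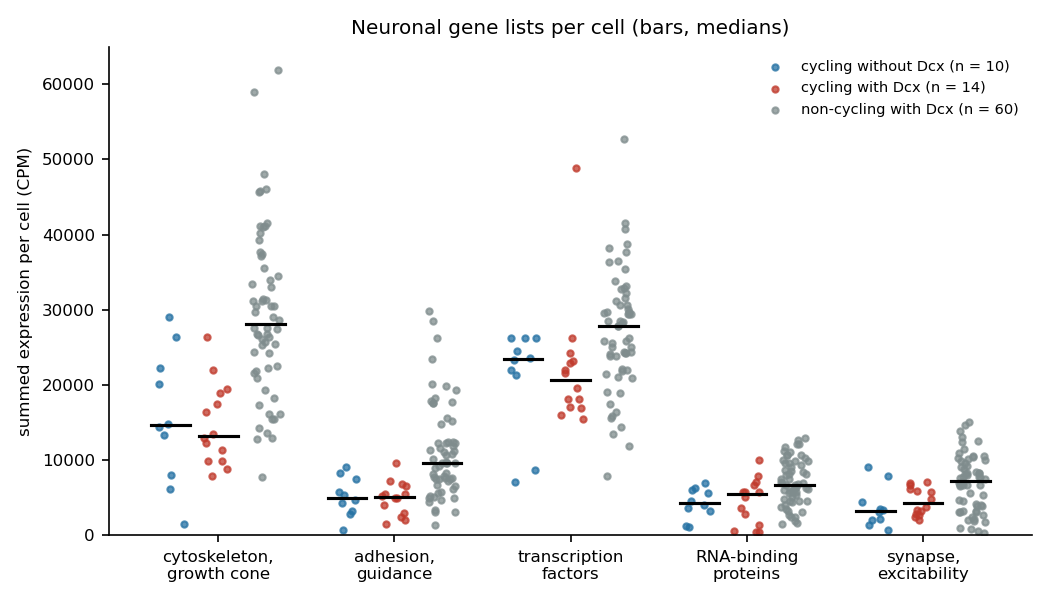
Summed expression per cell, in CPM, of 5 neuronal gene lists in cycling cells without Dcx (blue), with Dcx (red) and non-cycling cells with Dcx (grey), with medians as black bars. The medians of cycling cells without and with Dcx are 14594 and 13240 CPM for the cytoskeleton list and 3162 and 4245 CPM for the synapse list, below the 28098 and 7257 CPM of non-cycling cells.

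The lists were also described by the number of genes carried. Of the cytoskeleton list, a median of 14 genes per cell reached 10 CPM in cycling cells with Dcx (10 to 21), 12.5 in those without (9 to 17) and 18 in non-cycling cells (11 to 24). Of the synapse list the medians were 8, 5 and 11 genes, with ranges of 4 to 13, 2 to 13 and 2 to 22. Of the adhesion list they were 10, 9 and 10 genes, and of the RNA-binding list 7, 7 and 8. The ranges of the cycling classes overlapped in both the cytoskeleton and the synapse list. The differences between the classes in these counts were not tested, and cells with Dcx also had more detected genes in all, as given above.

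Progenitor genes were present in cycling cells with Dcx. Ccnd2, cyclin D2 of dividing GCPs (chromosome 6, 127125162 to 127152193), reached 10 CPM in 14 of 14 and 10 of 10 cycling cells and in 41 of 60 non-cycling cells. It ran from 26.4 to 8157 CPM with a median of 2915 CPM with Dcx, and from 22 to 10019 CPM with a median of 4029 CPM without, while the median of non-cycling cells was 87.8 CPM. The log2 difference of Ccnd2 between the cycling classes was -0.88 (SE 0.79, edgeR adjusted p = 0.624). Sfrp1, a secreted Wnt modulator of GCPs, reached 10 CPM in 9 of 14, 7 of 10 and 22 of 60 cells. Mycn, a Sonic hedgehog target that drives GCP division, did so in 7 of 14, 6 of 10 and 22 of 60 cells.

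Components of the Sonic hedgehog pathway were detected in parts of both classes. Ptch1, its receptor and target, reached 10 CPM in 7 of 14 and 3 of 10 cells, and Gli2, an effector, in 5 of 14 and 3 of 10. Gli1, the target that reads out the pathway, reached 10 CPM in 1 of 14 and 2 of 10 cells, and in 0 of 60 non-cycling cells (95% Wilson interval 0 to 6.02%). Atoh1, the basic helix-loop-helix factor that defines GCPs (chromosome 6, 64729125 to 64731245), reached 10 CPM in 4 of 14 cells with Dcx, at 1043, 75.4, 67.5 and 46.6 CPM. It had 1 count over all 10 cells without Dcx, so the pooled ratio of 3160 (counting interval 567 to 124837) rests mostly on 1 cell of library group 2. The cell at 75.4 CPM was the one with 13 astroglial genes. Atoh1 lay higher in 4 of 5 library groups and equal in the other (exact sign-flip p = 0.125, adjusted p = 0.808 over the panel).

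Of the Notch genes, Notch2 reached 10 CPM in 8 of 14 cells with Dcx (57.1%, Wilson interval 32.6 to 78.6%), 2 of 10 without (20%, 5.67 to 51%) and 7 of 60 non-cycling cells. Its highest level with Dcx, 173 CPM, was in the cell with astroglial genes, and the other 7 held 12.4 to 42.5 CPM. Within library groups Notch2 differed by 2.66 ± 2.35 in log2(CPM + 1) (SD, n = 5, higher in 4 of 5, exact sign-flip p = 0.125, adjusted p = 0.808), whereas its log2 difference in the sums was -0.31 (SE 2.14, edgeR adjusted p = 0.963). Hes1, a Notch effector, reached 10 CPM in 2 of 14 cells with Dcx and had no count without. Both cells were in library group 5. The higher, at 112 CPM, was the cell with astroglial genes, and the other was the cell with microglial genes. These 2 cells held all Hes1 counts with Dcx. The pooled level was 148 times what 3 counts over the class without Dcx would give, a ratio of those cells only. Jag1, a Notch ligand, reached 10 CPM in 0 of 14 and 1 of 10 cells. Hey1, another Notch effector, lay higher in 5 of 5 library groups but was carried by 5 cells with Dcx, at 4120, 1623, 59.6, 22.1 and 14.1 CPM (edgeR adjusted p = 0.114). Of 23 tested genes of the Sonic hedgehog, Notch and progenitor list, 0 were called by edgeR. Of them 10 lay higher, beside 52.1% of all genes tested, and the median log2 difference was -0.26. DESeq2 called 2 higher and 0 lower of 26, beside 5.55% and 2.22% of all genes. At an unadjusted p under 0.05, 2 lay higher and 0 lower, beside 13% and 5.53% of all genes.

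Genes of cell cycle exit were either widely carried in both classes or carried by few cells. Cdkn1b, the CDK inhibitor p27 of GC differentiation, reached 10 CPM in 11 of 14, 9 of 10 and 47 of 60 cells, with medians of 65.6, 129 and 69.3 CPM. Cdkn1b differed by -0.09 on the log2 scale (SE 1.57, edgeR adjusted p = 0.988). Btg2, an antiproliferative gene of neurogenic divisions, reached 10 CPM in 6 of 14, 3 of 10 and 10 of 60 cells. Ccng2, a cyclin of cells leaving the cycle, reached 10 CPM in 5 of 14 and 1 of 10 cells (log2 difference 5.84, SE 2.23, edgeR adjusted p = 0.147), and DESeq2 called it higher (adjusted p = 0.000923). Gadd45g, a growth arrest gene, reached 1794 CPM in 1 cell with Dcx and had 1 count over those without. Of 16 tested genes, 0 were called by edgeR and 7 lay higher, beside 52.1% of all genes tested, with a median of -0.11. DESeq2 called 2 higher and 0 lower of 15, beside 5.55% and 2.22% of all genes. At an unadjusted p under 0.05, 4 lay higher and 0 lower, beside 13% and 5.53% of all genes. Their summed level per cell had medians of 2725 CPM with Dcx (777 to 5767), 1142 CPM without (489 to 3670) and 2297 CPM in non-cycling cells.

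The 42 panel genes were also compared with each cell at equal weight. No adjusted p of the exact sign-flip test over library groups lay under 0.808, and the smallest raw p, 0.0625 for Stmn2, is the smallest that 5 library groups can give. With the mean per cell of each library group permuted between the classes instead of compared within library groups, Map2 had an exact p of 0.0173 and Atoh1 of 0.0303, and the lowest adjusted p was 0.636. Map2 had the largest negative difference, -3.90 ± 3.77 in log2(CPM + 1) (SD, n = 5, lower in 4 of 5, exact sign-flip p = 0.125), and Ccnb1, mitotic cyclin B1, the largest positive, 3.66 ± 3.69 (higher in 4 of 5, exact sign-flip p = 0.125). For Map1b, Neurod1, Top2a and Tubb3 the difference was positive here, at 1.72, 0.98, 3.27 and 0.12, and negative in the sums, at -0.51, -0.42, -0.48 and -1.31. Sfrp1, Mycn, Elavl3, Cdkn1b, Btg2 and Notch2 also lay above 0 here and below 0 in the sums. Rbfox3, Nhlh1 and Hes6 lay below 0 here and above 0 in the sums. No direction is given for any of these genes. In most genes single library groups lay on both sides of 0.

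**Figure D5:**
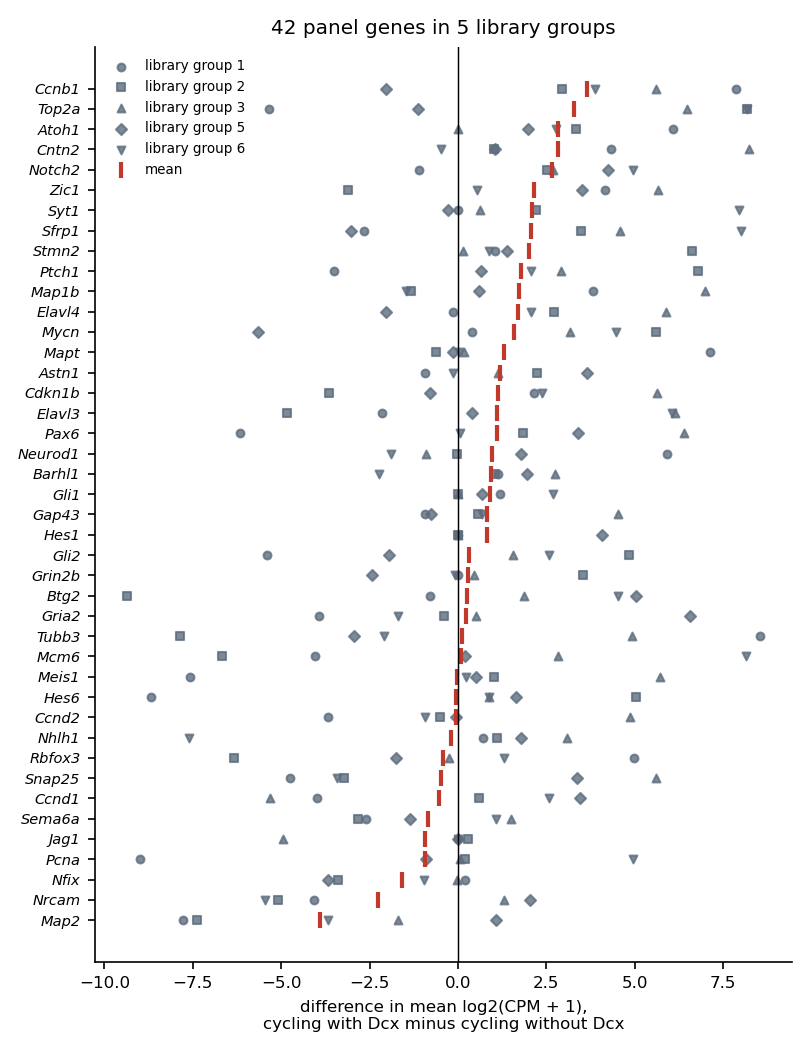
Difference in mean log2(CPM + 1) per cell between cycling cells with and without Dcx (horizontal) for 42 panel genes (vertical), with 1 symbol per library group and the mean as a red bar. Of these genes, Stmn2 lies above 0 in all 5 library groups, and most others scatter to both sides of 0.

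Away from the lists, genes were named by the smallest p among those that lay the same way in all 5 library groups. Among those higher with Dcx were Rab31, Sf3b5, Rexo2, Atp6v1e1, Far1 and Cmss1, with roles that include vesicle transport (Rab31) and splicing (Sf3b5). None of these reached 10 CPM in any cell without Dcx, and they did so in 4 to 7 of 14 cells with Dcx. The genes were picked on these same values, so this separation is not a result of its own. Sf3b5, for example, reached 10 CPM in 7 cells with Dcx, up to 805 CPM, and at most 0.64 CPM without (log2 difference 9.79, SE 2.43, edgeR adjusted p = 0.114). Lower with Dcx were Srsf11, 2410089E03Rik, Sept2, Psmb6, Slc29a4, Cnbp, Katnbl1 and Foxn2. Of these Srsf11, a splicing regulator, had medians of 186 and 726 CPM (log2 difference -2.99, SE 1.23, edgeR adjusted p = 0.175).

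Beside the non-cycling cells with Dcx, the cycling cells with Dcx held lower medians of most neuronal lists. This comparison shares the cycling cells with Dcx with the one above. No gene of 7926 was called by edgeR (0% at an adjusted p under 0.01), 140 (1.77%) lay higher and 547 (6.90%) lower at an unadjusted p under 0.05, and DESeq2 called 90 higher (0.817%) and 423 lower (3.84%) of 11010. The median log2 difference of all genes was -0.33, with 43.3% of them higher. It was -1.11 for the cytoskeleton list, with 6 of 27 genes higher, -1.40 for adhesion (10 of 30), -0.98 for RNA-binding proteins (3 of 16), -1.15 for the synapse list (4 of 32) and -0.38 for transcription factors (12 of 34). The S phase and G2/M lists had medians of 2.01 and 3.91, with 39 of 47 and 52 of 53 genes higher, a description only, since these classes were chosen by Mki67. Gap43 (medians 2.6 against 324 CPM), Mapt (0.319 against 7.58 CPM) and Grin2b (0.271 against 20.9 CPM) had far lower medians in cycling cells with Dcx than in non-cycling cells, without passing edgeR's test. With DESeq2 size factors, which put the median of all genes at -0.01, the cytoskeleton, adhesion, RNA-binding and synapse lists had medians of -0.59, -1.16, -0.74 and -0.71, and the transcription factors 0.01.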

How the data were processed

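Single cells from P7 mouse cerebella were sequenced, 1 library a cell. The authors aligned reads to mm10 with STAR 2.4.1d, counted them per gene with HTSeq 0.6.1 and deposited raw counts; the annotation and strand setting are not given in the sources used here. The 15973 listed genes had a count in at least 3 cells. The members and lists were chosen with earlier results of these data known. Counts were summed per class and library group, filtered with filterByExpr, scaled by TMM and tested with edgeR 4.0.16 (R 4.3.3), 3 classes in 1 fit without a block. Genes were called at a Benjamini-Hochberg adjusted p under 0.01. Panel genes were compared by exact two-sided sign-flip tests on log2(CPM + 1). A class without counts was given 3. Named were the panel, up to 4 higher and 4 lower members of each list by p, and 8 higher and 8 lower genes lying one way in all 5 library groups, of which the text gives examples; some are not reported here. Fitted differences of 15 panel genes, picked after values were seen, were followed through the alternatives. Scripts were tested on simulated data. Alternatives were DESeq2 1.42.0 on sums, its size factors, no filter, a library group block, 2 classes, cells as units, counts thinned to 1275466 per cell, other limits and left-out cells or library groups. Positions are from GENCODE M21 (GRCm38).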

Additional observations from a re-analysis of the deposited data

Results flagged for a closer look

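Of 56 groups of 4 to 10 values examined, 11 held a value far from the others by Dixon's criterion, which chance alone meets in about 1 in 20 groups. Among the 10 cycling cells without Dcx, 1 cell of library group 5 had the lowest log2 sums of the cytoskeleton list, 10.5 against a median of 13.8, and of the S phase list, 10.6 against 12.9. Another cell of that group had the lowest sum of the adhesion list, 9.26 against 12.3. In library group sums, as log2(CPM + 1), cycling cells without Dcx stood apart for Map2 in library group 5, at 4.84 against a median of 9.64, and for Ccnd2 in library group 3, at 5.45 against 12.2. The sum in library group 3 is the single cell with oligodendrocyte precursor genes. Cycling cells with Dcx stood apart in library group 1, which holds 1 such cell, for Elavl4 at 0 against 9.26, Pax6 at 2.43 against 9.06, Meis1 at 3.59 against 9.88, Ccnd2 at 8.08 against 11.4 and Top2a at 0.63 against 9.65. Non-cycling cells stood apart for Gap43 in library group 1, at 7.54 against 9.54. Without library group 1 the difference of Meis1 turned to 0.77 and that of Top2a to 0.010.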

How the results depend on the processing

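Small numbers of cells limit every value here, since the sums of cycling cells held 1 to 5 cells and 5 library groups held both classes. No gene was called by edgeR on sums under any alternative at an adjusted p under 0.01, and fewer genes entered some of these fits. Between the cycling classes DESeq2 on sums called 855 genes and edgeR on single cells 4, and between cycling and non-cycling cells with Dcx 513 and 231. The number at an unadjusted p under 0.05 was 3572 without a filter, 831 with the replicate block and 217 with 2 classes only in the first comparison. In the second it was 3385 without a filter, 1716 with DESeq2, 1241 with cells as units and 1284 with sums of at least 2 cells. The cause of these differences was not tested. Deviations of the cycling classes in the same library group correlated at -0.0003 to 0.05. The fit across all genes was set without a block, not because of these values, while the panel and depth tests take differences within library groups. DESeq2 size factors moved the median log2 difference of all genes from 0.13 to -0.07 and from -0.33 to -0.01.

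Median differences of the lists moved by more than 1 SD between library groups as follows. With the replicate block they were 1.87 for all genes, 1.20 for the cytoskeleton, 1.29 for the synapse, 1.54 for cell cycle exit and 2.22 for S phase, and in the second comparison -1.31 for all genes, -3.98 for adhesion and -3.03 for the synapse. With sums of at least 2 cells they were 0.80 for the cytoskeleton, 2.62 for the synapse and 7.01 for astroglia. With cells as units they were 0.88 for the synapse, and 5.63 for S phase and 6.90 for G2/M in the second comparison. Adhesion stood at -0.72 with 2 classes only and -0.17 with an Mki67 limit of 200 CPM. Leaving out 1 library group gave -0.071 to 0.92 for adhesion, -0.68 to 1.25 for the synapse, -0.50 to 1.64 for cell cycle exit and -3.48 to 4.73 for astroglia. The last fell below 0 without library group 5, which holds the cell with astroglial genes. The number of panel genes whose mean per cell lay one way in every library group, 1, was 3 with a pseudocount of 10 CPM, 2 with a single Dcx limit and 2 to 7 with 1 library group left out.

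Fitted differences changed sign in at least 1 of 17 alternatives for 29 of the 39 panel genes tested, 90 times in all, and for 4951 of 7926 genes. Among 15 panel genes picked after values were seen, this held for 9 and occurred 32 times. They were picked partly to limit the number of sign changes, so their share cannot be set against that of the panel these 15 genes came from. Of these Pax6 differed by 0.09, Meis1 by -0.54, Sfrp1 by -1.62 and Gap43 by 2.27 in the fit with TMM and no block. With DESeq2 size factors Rbfox3 was -0.17 and Pax6 -0.026, and with DESeq2 on sums -0.17 and -0.022. With the replicate block Meis1 was 0.10, Sfrp1 1.28, Top2a 1.60 and Cdkn1b 0.91. With 2 classes only Cdkn1b was 0.0016. With cells as units Neurod1 was 0.12, Rbfox3 -0.51, Pax6 -0.32 and Cdkn1b 1.22. With sums of at least 2 cells Sema6a was 0.33, Rbfox3 -0.37 and Pax6 -0.20. Without the cells with astroglial genes Neurod1 was 0.38 and Cdkn1b 0.13. With 1 library group left out, Map1b ran from -1.16 to 0.10, Sema6a from -0.74 to 0.33, Rbfox3 from -0.46 to 1.35, Pax6 from -0.56 to 0.82, Meis1 from -0.95 to 0.77, Sfrp1 from -2.25 to 0.13, Top2a from -1.09 to 0.010, Cdkn1b from -0.31 to 0.16, Pole from -0.62 to 7.61 and Aqp4 from -1.54 to 9.83. Meis1, Sfrp1 and Top2a lay above 0 without library group 1, where 1 cell makes up the sum with Dcx.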

Other observations

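Lhx1, a LIM homeobox gene listed here with GABAergic neurons and Purkinje cells, was widely carried by the cycling cells. It reached 10 CPM in 13 of 14 cycling cells with Dcx, with a median of 898 CPM and a range of 9.74 to 3689 CPM, and in 7 of 10 cells without, with a median of 118 CPM and a range of 0 to 2680 CPM. In non-cycling cells with Dcx it reached 10 CPM in 33 of 60, with a median of 24.4 CPM. Gad1, the enzyme of GABA synthesis on the same list, did not reach 10 CPM in any of the 24 cycling cells. Lhx1 differed by 0.49 on the log2 scale between the cycling classes (SE 1.31, edgeR adjusted p = 0.902), and the level was noticed after values were seen.

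The 6 cycling cells with Dcx between the limits carried neuronal RNAs too. Map1b, Stmn2, Sema6a, Neurod1 and Map2 each reached 10 CPM in 6 of 6, with medians of 9002, 412, 305, 647 and 201 CPM, and Tubb3 did so in 5 of 6. Mapt and Grin2b reached 10 CPM in 0 of 6. Ccnd2, the progenitor cyclin, reached it in 6 of 6, with a median of 2615 CPM.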
